A study of Rattus norvegicus with 12 samples.

Results

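A set of 38 genes of skeletal muscle and white fat was followed array by array in rat dorsal root ganglia, the clusters of sensory neuron cell bodies beside the spinal cord. The genes were chosen by tissue, 30 for muscle and 8 for fat, and found by their names in the scanner files. The array carried 37 of the 38 names (29 for muscle and 8 for fat) among 35287 gene names, and Casq1 was not matched by name. After a filter on dim probes 36 members were tested (29 for muscle and 7 for fat) among 29622 genes. Lep, the fat hormone leptin, did not stand well above background on a single array and was not tested. The set's level was read as a description of other tissue in a sample, and how such tissue came there was not tested.

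The study used male Sprague-Dawley rats, 24 in all, in 4 groups of 6. All had a 1 cm segment of the left sciatic nerve removed at the mid-thigh, and ganglia were taken 0.5, 3, 6 or 9 h later. Each time has 3 one-colour arrays, 12 in all. The labels name no uninjured group and do not tie the 6 rats of a time to its 3 arrays, so p-values measure the spread between these samples, which may be technical. All groups share the operation and the anaesthesia, and 0.5 h served as the reference.

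Skeletal muscle contracts when myosin thick filaments pull on actin thin filaments, released by calcium through the troponin complex. Fast fibres and slow fibres use different genes for myosin, troponin and the calcium pump, so their transcripts mark the kind of muscle as well as its presence. White fat cells store triglyceride, break it down with lipases and secrete hormones such as adiponectin. Parvalbumin (Pvalb), a calcium buffer of fast muscle, is also a marker of muscle-sensing neurons in these ganglia. Whether sensory neurons or their glia express other members was not tested, so no single member marks other tissue by itself.

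The probes decide what the levels can tell apart, and those of the myosin heavy chains are shown because fibre type rests on them. The Myh6 probe (heart alpha-myosin, chr15:33044576-33044983, rn4, minus strand, across an intron) and the Myh7 probe (slow and heart beta-myosin, chr15:33073020-33073645, rn4, minus strand, across an intron) share a run of 27 bases, in capitals. The Myh7 probe is printed up to its stop codon, the first 45 of 60 bases.
Myh6: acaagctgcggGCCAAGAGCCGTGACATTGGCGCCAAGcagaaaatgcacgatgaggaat
Myh7: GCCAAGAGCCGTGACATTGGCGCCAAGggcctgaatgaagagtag
The Myh2 and Myh4 probes, for 2 fast myosins, each lie on 60 contiguous bases (chr10:53889243-53889302 and chr10:53953933-53953992, rn4, plus strand) and align over 29 bases, in capitals, with 9 mismatches and no shared run over 9 bases.
Myh2: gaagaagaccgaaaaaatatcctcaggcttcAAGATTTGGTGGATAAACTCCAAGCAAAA
Myh4: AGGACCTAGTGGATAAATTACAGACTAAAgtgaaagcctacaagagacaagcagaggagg
Coding probes of a slow troponin (Tnni1, chr13:48840073-48840132, plus strand) and of the fat genes Adipoq (chr11:79908475-79908534, minus strand) and Fabp4 (chr2:93536175-93538589, plus strand, across an intron), all on rn4, are shown because the slow and fat levels rest on them.
Tnni1: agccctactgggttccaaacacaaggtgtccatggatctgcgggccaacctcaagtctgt
Adipoq: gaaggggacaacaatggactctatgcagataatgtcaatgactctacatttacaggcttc
Fabp4: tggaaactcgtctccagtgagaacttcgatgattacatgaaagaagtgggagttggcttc

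Levels are log2 signals relative to the 75th percentile of the same array, so a level of 0 is that percentile. They are set against the same probe on other arrays and not against other probes. A centred level is a gene's level minus its mean over the 12 arrays. The scanner software marked 63.3 to 67.6% of probes as well above background at 0.5 h and 82.3 to 85.4% later, with a median local background of 64 to 86 intensity units at 0.5 h and 37 to 45 later. The 0.5 h, 3 h and 9 h arrays each lay on 1 slide of their own. The 6 h arrays lay on slide 3 (replicate 1) and slide 4 (replicates 2 and 3), which held no other time. Slide and time therefore cannot be told apart in any comparison. By scan day, the 0.5 h arrays were scanned on day 1, the 3 h and 6 h arrays on day 2 and the 9 h arrays on day 3. Scan day and time cannot be told apart either, except for 6 h against 3 h, which lies within 1 day but on different slides. The mean centred level of 15 sensory neuron markers, all well above background on every array, spanned 0.31, that of 8 Schwann cell markers 0.61 and that of 5 satellite glia markers 0.47. Single markers did differ: 2, 2 and 3 of the 8 Schwann cell markers were called lower at 3, 6 and 9 h against 0.5 h. Of the 5 satellite glia markers 2 were called lower at 6 h and 1 higher at 9 h. Of the 15 sensory neuron markers 1 was called higher at 3 h, 1 lower at 6 h and 1 higher at 9 h. Over all genes 23.2, 13.4 and 33.3% were called in either direction at these times, and 10.7, 4.01 and 22.4% were called higher.

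All 29 tested muscle members were well above background on all 12 arrays, including those at 0.5 h. Their summed signal, over all probes' summed signal, was 0.106, 0.0865 and 0.177% on the 0.5 h arrays, 0.375, 0.423 and 0.0939% at 3 h, 0.103, 0.787 and 0.23% at 6 h, and 0.329, 0.254 and 0.113% at 9 h. The highest share was on 6 h replicate 2 and the lowest on 0.5 h replicate 2, and the times overlapped. The share includes Pvalb, which also marks neurons of these ganglia, so not all of it need be muscle. On 0.5 h replicate 2 Pvalb was at 3.90, beside 3.14 for Mylpf. The mean centred level of the muscle members was -0.98, -0.97 and -0.29 at 0.5 h, 1.04, 0.88 and -1.03 at 3 h, -0.91, 1.98 and 0.32 at 6 h, and 0.56, 0.33 and -0.94 at 9 h. It spanned 3.01, an 8.06-fold range. At each of 3, 6 and 9 h, 1 array lay near or below the lowest 0.5 h arrays.

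The 7 fat members moved over a smaller range, 2.11 or 4.31-fold in their mean centred level. This level was -0.79, -0.82 and -0.57 at 0.5 h, 0.85, 0.73 and -1.01 at 3 h, -0.35, 0.08 and 0.39 at 6 h, and 1.09, 0.62 and -0.22 at 9 h. By mean centred level, the highest array for fat was 9 h replicate 1, not the 6 h replicate 2 that was highest for muscle, and 3 h replicate 3 was lowest for both. The fat members made up 0.00159 to 0.00662% of the summed signal. In bulk samples, fewer cells of a type and less RNA per cell cannot be told apart.

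**Figure D1:**
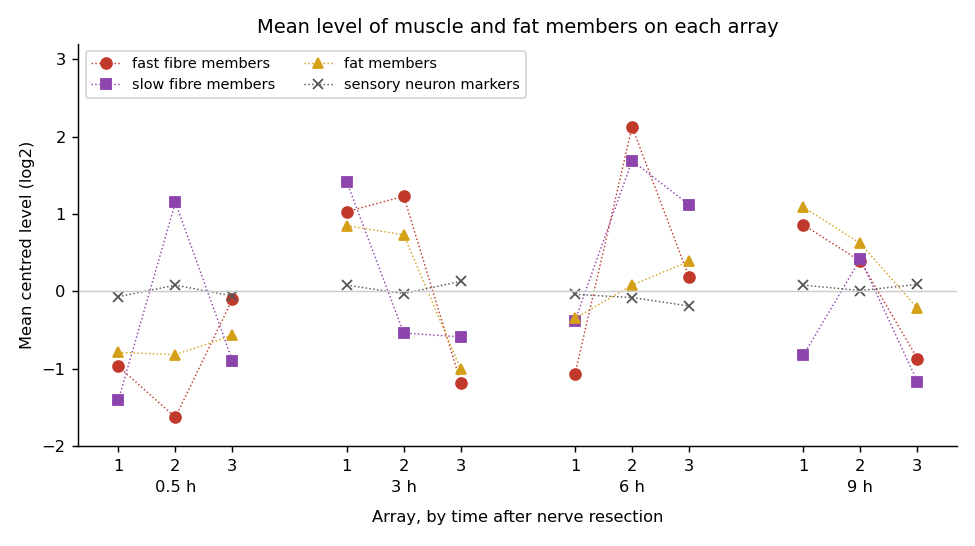
Mean centred level (log2) of the 13 fast fibre members, 4 slow fibre members, 7 fat members and 15 sensory neuron markers on each of the 12 arrays, grouped by time after nerve resection (dotted lines join arrays of 1 time and carry no order). The muscle and fat levels differ between arrays of the same time, with fast fibre members at 2.13 on 6 h replicate 2 and -1.63 on 0.5 h replicate 2, while the sensory neuron markers span 0.31.

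Thick filament genes had among the widest ranges. Mylpf (current symbol Myl11), the regulatory light chain of fast myosin, was at 3.46, 3.14 and 4.46 at 0.5 h, 5.81, 5.98 and 3.42 at 3 h, 3.70, 6.73 and 5.0 at 6 h, and 5.64, 5.32 and 3.97 at 9 h. It was highest on 6 h replicate 2 and lowest on 0.5 h replicate 2, and each later time overlapped 0.5 h. The fast myosin heavy chains Myh1, Myh2 and Myh4 had ranges of 4.07, 3.84 and 4.31, all from 0.5 h replicate 2 to 6 h replicate 2. Myl1, a fast light chain, ranged over 3.88. Mybpc2, the fast myosin-binding protein C, had the widest range of the muscle members, from -1.15 to 3.34, or 22.5-fold. Mybpc1, the slow-type myosin-binding protein C that fast fibres also make, ranged over 3.66 and correlated with the other muscle members at r = 0.96 over the 12 arrays.

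Thin filament and troponin genes split in 2. Acta1, skeletal alpha-actin, was at 1.54, 1.72 and 2.83 at 0.5 h, 4.21, 4.12 and 1.65 at 3 h, 1.82, 5.17 and 2.98 at 6 h, and 3.77, 3.33 and 2.00 at 9 h. Its 3 h replicate 3 lay within the 0.5 h arrays, far below the other 3 h arrays. The fast troponins Tnnt3, Tnni2 and Tnnc2, which bind tropomyosin, inhibit the filament and bind calcium, ranged over 3.88, 3.49 and 4.21, each from 0.5 h replicate 2 to 6 h replicate 2. The slow troponins did not share that order.

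Tnni1, the inhibitory troponin of slow fibres, was at -3.42, -0.61 and -2.80 at 0.5 h, 0.09, -2.26 and -2.29 at 3 h, -2.27, 0.29 and -0.57 at 6 h, and -2.90, -1.30 and -2.89 at 9 h. Its high arrays were 6 h replicate 2, 3 h replicate 1, 6 h replicate 3 and 0.5 h replicate 2, the last being the lowest of all arrays for most fast genes. Myh7, the slow myosin heavy chain, was at -0.59, 2.38 and -0.03 at 0.5 h, 2.58, 0.18 and 0.34 at 3 h, 0.65, 2.94 and 2.33 at 6 h, and 0.34, 1.74 and -0.31 at 9 h. Tnnt1, the tropomyosin-binding slow troponin, ranged from -3.47 to 0.46. Tnnc1, the calcium-binding troponin of slow and heart muscle, had the narrowest range of the 4, from 0.43 to 1.76.

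These 4 slow members followed each other at r = 0.96 to 0.99 over the 12 arrays and followed the other muscle members at only 0.50 to 0.61. The mean centred level of the slow members was -1.41, 1.15 and -0.90 at 0.5 h, 1.42, -0.54 and -0.59 at 3 h, -0.38, 1.69 and 1.12 at 6 h, and -0.83, 0.42 and -1.17 at 9 h. That of the 13 fast members was -0.97, -1.63 and -0.10, then 1.03, 1.23 and -1.18, then -1.07, 2.13 and 0.18, then 0.86, 0.39 and -0.87. On 0.5 h replicate 2 the fast level was the lowest of the 12 and the slow level the third highest, at 1.15. On 3 h replicate 2 and 9 h replicate 1 the fast level was above 0 and the slow level below it.

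The fast and slow levels correlated at r = 0.41 (rho 0.34) over the 12 arrays, at r = 0.49 without 6 h replicate 2 and 0.5 h replicate 2, and at r = 0.35 on deviations from each time's mean. Muscle and fat levels correlated at r = 0.74 (rho 0.84), at 0.91 without 6 h replicate 2 and 3 h replicate 3, and at 0.77 on deviations from each time's mean. Slow and fat levels correlated at r = 0.27 (rho 0.26), fast and fat at 0.76. These are descriptions over 12 arrays that share slides, scaling and time, and they carry no test.

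**Figure D2:**
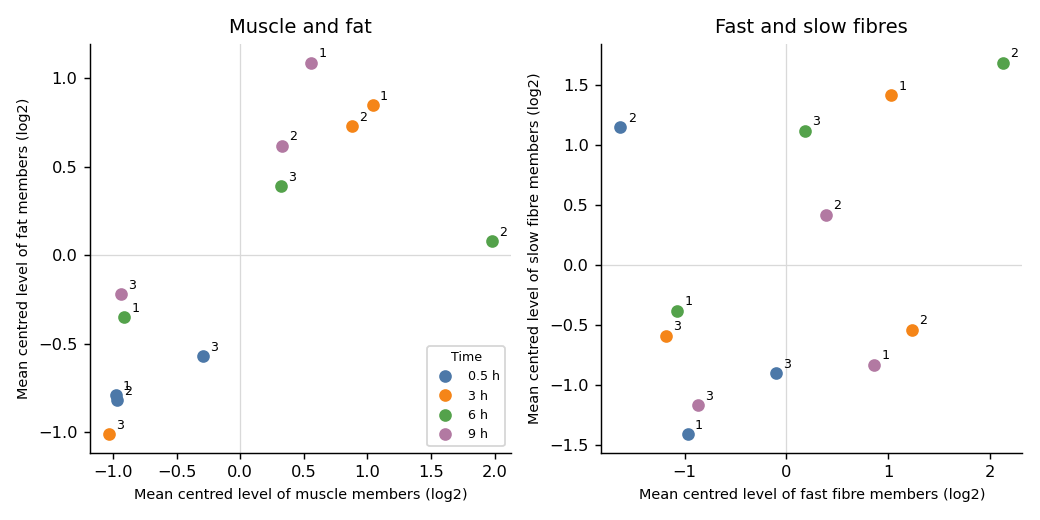
Mean centred level (log2) of the muscle members against the fat members (left) and of the fast against the slow fibre members (right). Each point is 1 of the 12 arrays, coloured by time and numbered by replicate. Muscle and fat correlate at r = 0.74 but differ in order: 6 h replicate 2 has the highest muscle level (1.98) with a fat level of 0.08, and 9 h replicate 1 the highest fat level (1.09) with a muscle level of 0.56. On the right, 0.5 h replicate 2 combines a fast level of -1.63 with a slow level of 1.15.

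Z disc genes, which anchor the thin filaments, followed the fast pattern. Actn3, the alpha-actinin of fast fibres, ranged over 3.93, Myoz1, its binding partner, over 3.98 and Myot, myotilin, over 3.98. Ldb3, a scaffold of the Z disc, ranged over 2.77, from -3.81 to -1.04. Ldb3 was at -3.48, -3.81 and -3.60 at 0.5 h and at or above -3.45 on every later array, and was the 1 muscle member whose arrays did not overlap between 0.5 h and each later time.

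Calcium handling genes included the second widest and the narrowest range of the muscle members. Atp2a1, the calcium pump of fast fibres, ranged from -1.02 to 3.43, or 21.8-fold. Ryr1, the calcium release channel, and Trdn, triadin, which is coupled to it, ranged over 3.66 and 3.03. Of 5 other Ryr1 probes, 2 followed the probe used (r = 0.96 and 0.99), 2 did not (r = -0.08 and 0.31, ranges 0.99 and 1.0), and 1 was well above background on 3 arrays only (r = 0.55).

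Pvalb was at 3.94, 3.90 and 4.2 at 0.5 h, 4.40, 4.50 and 3.91 at 3 h, 3.80, 4.65 and 3.90 at 6 h, and 4.30, 3.99 and 3.82 at 9 h. Its range of 0.86 (1.81-fold) was the narrowest of the muscle members, and yet it followed them at r = 0.88, and at 0.94 on deviations from each time's mean. The level did not go below 3.80 on the arrays where muscle was lowest. The mean centred level of 4 other markers of muscle-sensing neurons spanned 0.34, and Runx3, Etv1, Ntrk3 and Spp1 correlated with the muscle level at -0.31, -0.13, -0.22 and -0.03.

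Among the energy genes Ckm, the creatine kinase of muscle, was at 2.53, 1.98 and 3.25 at 0.5 h, 4.55, 4.78 and 2.43 at 3 h, 2.44, 5.45 and 3.64 at 6 h, and 4.31, 3.94 and 2.68 at 9 h. The glycolytic enzymes Pgam2 and Eno3 ranged over 3.80 and 3.12 and followed Ckm's order at both ends. The oxidative genes had narrower ranges: Mb, the oxygen store myoglobin, 3.00, Cox6a2, a subunit of cytochrome oxidase, 2.18, and Ckmt2, the mitochondrial creatine kinase, 1.84. Mb and Ckmt2 were lowest on 9 h replicate 3.

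**Figure D3:**
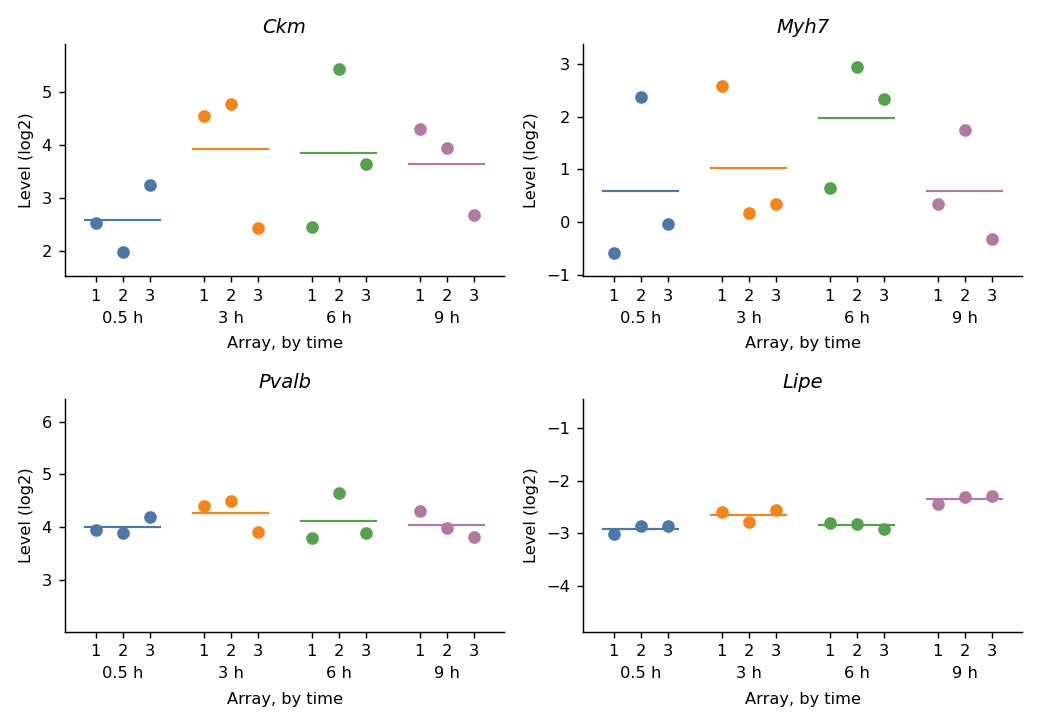
Level (log2, relative to each array's 75th percentile) of Ckm, Myh7, Pvalb and Lipe on the 12 arrays, with a line at the mean of each time; all panels span the same number of log2 units. Ckm and Myh7 range over 3.47 and 3.53, with different arrays high, Pvalb over 0.86 and Lipe over 0.72.

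Among the fat members Adipoq, Fabp4 and Cidec varied most. Adipoq, the hormone adiponectin, was at -3.16, -3.11 and -2.80 at 0.5 h, -0.06, -0.48 and -4.74 at 3 h, -2.32, -1.64 and -0.87 at 6 h, and 0.25, -0.87 and -2.71 at 9 h. Its 3 h arrays held both its lowest level and 2 of its 3 highest, and its range of 5.0 (32-fold) was the widest of all tested members. Cfd, the protease adipsin, ranged over 2.16 and was lowest on the same 3 h replicate 3. Fabp4, the fatty acid carrier of fat cells and macrophages, was at -3.41, -3.78 and -3.20 at 0.5 h, -1.09, -1.33 and -4.40 at 3 h, -2.93, -2.32 and -1.85 at 6 h, and -0.94, -1.92 and -3.62 at 9 h.

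Cidec, a coat protein of lipid droplets, was at -5.74, -5.66 and -5.26 at 0.5 h, -2.84, -3.17 and -5.42 at 3 h, -4.58, -3.95 and -3.73 at 6 h, and -2.79, -3.30 and -4.27 at 9 h. None of its 0.5 h arrays stood well above background. Adipoq, Cfd, Cidec and Fabp4 followed the other fat members at r = 0.94 to 0.97. The other 3 fat members did so less: Pparg, the nuclear receptor that drives fat cell formation, at 0.81, Pck1, an enzyme of glyceride and glucose synthesis, at 0.69, and Lipe, hormone-sensitive lipase, at 0.35 and at -0.57 on deviations from each time's mean. For Pck1 this holds for the probe used. Its other kept probe ranged over 3.35, lowest on 3 h replicate 3 and highest on 9 h replicate 1, as Adipoq was.

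**Figure D4:**
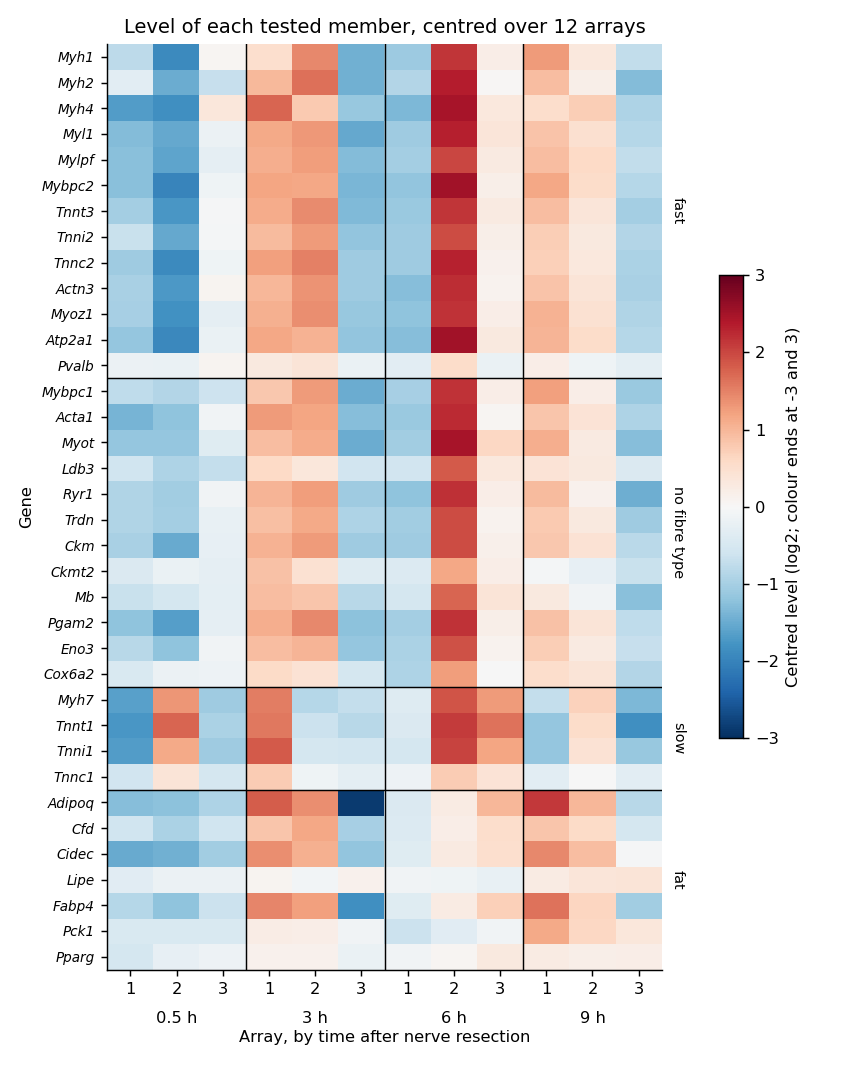
Centred level (log2; colour ends at -3 and 3) of the 36 tested members (genes on the vertical axis, in blocks of fast fibre, no fibre type, slow fibre and fat) on the 12 arrays (horizontal axis, by time and replicate). The fast and untyped muscle genes share 6 h replicate 2 as their highest array, the slow block is also high on 0.5 h replicate 2 (mean 1.15), and Pvalb and Lipe are pale throughout.

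The spread between arrays of 1 time was large beside that of other genes. The pooled standard deviation within times had a median of 1.26 over the muscle members and 0.73 over the fat members, against 0.14 over all genes tested. Of the 29 muscle members 26 lay above the 95th percentile of all genes (0.64) and 23 above the 99th, and 4 of 7 fat members lay above the 95th. Tnnc1, Ckmt2 and Pvalb were the 3 muscle members below it, and Lipe, at 0.09, lay at percentile 22.6.

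At 3 h against 0.5 h after the resection, all 29 muscle members had higher means and none was called. Most of them followed each other closely over the arrays, so here and below their directions are not independent observations. The count was 0 of 29 by limma at an adjusted p under 0.05, and also 0 at an unadjusted p under 0.05. Their median log2 difference was 1.09, against 0.03 over all genes tested. Of 36 members 1 was called, Lipe, while 23.2% of all genes were. Lipe was at -3.02, -2.87 and -2.86 at 0.5 h and -2.60, -2.78 and -2.56 at 3 h, a difference of 0.27 (SE 0.08, limma adjusted p = 0.0309). On the probe used its arrays did not overlap between the times, and the same held for Pck1 and Ldb3, 3 of 36 members against 41.3% of all genes. On the other kept probe of Lipe these times overlapped (-3.39, -3.65 and -3.83 at 0.5 h, -3.39, -3.52 and -3.10 at 3 h).

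The other differences at 3 h had wide errors. Acta1 differed by 1.30 (SE 0.93, limma adjusted p = 0.351), Ckm by 1.33 (SE 0.84, 0.283) and Mylpf by 1.38 (SE 0.88, 0.289). Adipoq differed by 1.26 (SE 1.14, 0.466) and Fabp4 by 1.19 (SE 0.88, 0.364). The slow genes Myh7 and Tnni1 differed by 0.45 (SE 0.96) and 0.79 (SE 0.95). The fat members had a median difference of 1.05, with 7 of 7 higher (0.51 without 3 h replicate 1 and 0.62 without 3 h replicate 2). Without 3 h replicate 3, 5 of 36 members were called, beside 5352 genes called in all. Adipoq (2.75, limma adjusted p = 0.0341) and Fabp4 (2.26, limma adjusted p = 0.0453) were among the 5. The medians were then 1.86 for muscle and 1.71 for fat, and Lipe was not called (limma adjusted p = 0.092). Lipe's call also ended without 0.5 h replicate 1 (0.0952), 0.5 h replicate 2 (0.0533) or 3 h replicate 1 (0.0991), with only these times fitted (0.0938) and under normexp background correction (difference 0.22, adjusted p = 1).

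At 6 h against 0.5 h, 0 of 36 members were called by limma, against 13.4% of all genes. At an unadjusted p under 0.05 there was 1 muscle member, Ldb3 (1.28, SE 0.54, adjusted p = 0.146), and 2 fat members, Cidec and Pparg. The median difference was 1.30 for muscle, with 29 of 29 higher, and 0.82 for fat, with 7 of 7 higher, against -0.04 over all genes. The muscle median was 0.45 without 6 h replicate 2 and 2.05 without 6 h replicate 1. The arrays of 6 members did not overlap between the times (Adipoq, Cfd, Cidec, Fabp4, Pparg and Ldb3), against 37.2% of all genes.

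At 9 h against 0.5 h, Lipe, Pck1, Pparg and Cidec were called higher and 0 of 29 muscle members were called (0 also at an unadjusted limma p under 0.05). The 4 of 36 members stand against 33.3% of all genes called, and 22.4% called higher. Cidec passed the filter on dim probes only through the later times, where it was high. Among genes with a probe well above background on all 12 arrays, 34 members were tested and 2 were called, Lipe and Pparg, against 31.7% of those genes. On the probe used, Lipe was at -2.44, -2.32 and -2.30 at 9 h, above every other array, and rose by 0.57 (SE 0.08, limma adjusted p = 0.000684). Its other kept probe was at -3.39, -3.65 and -3.83 at 0.5 h and -3.32, -3.41 and -3.34 at 9 h, which overlap. That probe was highest on 3 h replicate 3 (-3.10), so the pattern of Lipe rests on 1 probe. Pck1 was at -4.75, -4.76 and -4.76 at 0.5 h, -4.08, -4.09 and -4.40 at 3 h, -4.94, -4.63 and -4.40 at 6 h, and -3.16, -3.67 and -3.95 at 9 h. It rose by 1.16 (SE 0.20, limma adjusted p = 0.00196), and on this probe its 9 h arrays lay above all others. Only 1 of its 3 arrays at 0.5 h stood well above background, so the size of this difference is uncertain. The other kept Pck1 probe was at -5.73, -4.78 and -5.62 at 0.5 h and -3.12, -4.28 and -3.48 at 9 h. Its 9 h arrays overlapped those at 3 h (-3.68, -3.65 and -6.48) and 6 h (-5.08, -5.23 and -3.93).

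Pparg was at -3.40, -3.13 and -3.04 at 0.5 h, -2.74, -2.75 and -3.09 at 3 h, -2.98, -2.82 and -2.59 at 6 h, and -2.63, -2.71 and -2.68 at 9 h. It rose by 0.52 (SE 0.13, limma adjusted p = 0.0146). Cidec was at least 2.62-fold higher at 9 h (limma adjusted p = 0.027), a bound, since its 0.5 h arrays were not well above background. The call for Cidec ended without 0.5 h replicate 1 or 2 or 9 h replicate 1 or 2 (adjusted p = 0.0677 to 0.0793). The calls for Cidec and Pparg also ended under cyclic loess scaling (adjusted p = 0.0617 and 0.072), that for Cidec under quantile scaling (0.0617) and that for Pparg under median scaling (0.0529). All 4 calls ended under normexp background correction (adjusted p = 0.202 to 0.349), under which 436 genes were called in place of 9861. The differences there were 0.84 for Lipe, 0.74 for Pparg, 1.14 for Pck1 and 1.51 for Cidec (2.10 fitted without that correction), so the calls ended while the direction held. The higher local background of the 0.5 h arrays moved with these differences in dim fat genes, and its part in them was not tested.

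The most variable members at 9 h were not called. Adipoq differed by 1.92 (SE 1.14, limma adjusted p = 0.222), although its 9 h arrays did not overlap those at 0.5 h, and Fabp4 by 1.31 (SE 0.88, 0.278). With slide as a random block Adipoq was called (limma adjusted p = 0.0423), with 6 members and 16892 genes called in all. The arrays of each of these times share 1 slide, so this block cannot separate slide from time. Its consensus correlation within slides was negative (-0.26), so this call carries no added weight. The muscle median was 0.86, with 26 of 29 higher, against 0.10 over all genes. It was 0.50 without 9 h replicate 1 and 1.46 without 9 h replicate 3. The means of Myh7 and Tnni1 differed by 0.01 (SE 0.96) and -0.09 (SE 0.95). Pvalb differed by 0.02 (SE 0.24), a sign that turned under normexp and under median scaling. The arrays of 7 members did not overlap between these times (6 fat members and Ldb3), against 48.5% of all genes.

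**Figure D5:**
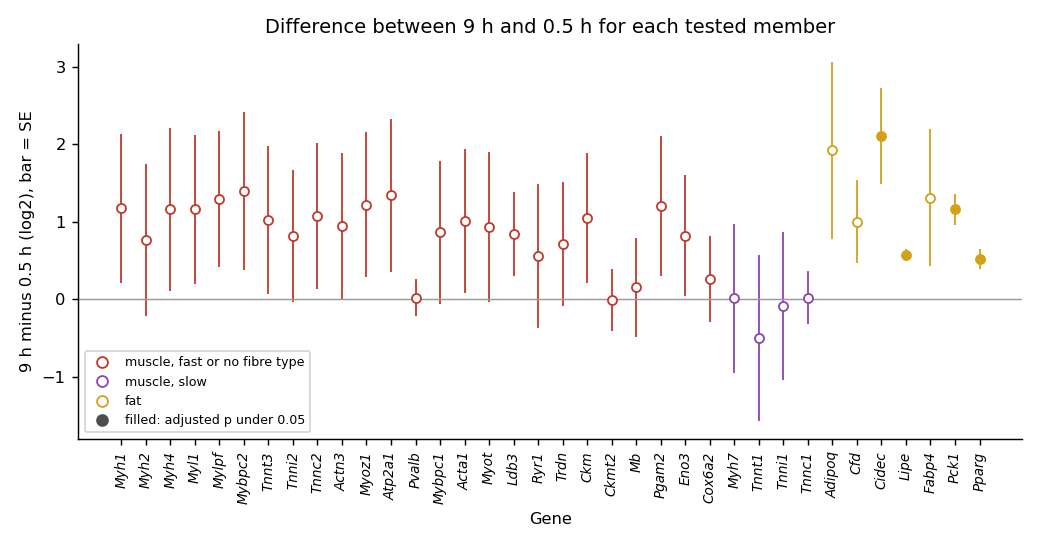
Difference between the 9 h and 0.5 h means (log2, vertical axis) of each of the 36 tested members, with its SE from limma as the bar; filled points are called at an adjusted p under 0.05. The 4 filled points are Cidec, Lipe, Pck1 and Pparg. Lipe has the smallest error (0.08), most fast muscle genes have larger differences with wide errors, and the point of Cidec is the fitted value, whose fold is a bound.

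Between the later times, 6 h against 3 h called 0 of 36 members by limma (0 muscle and 2 fat members, Lipe and Pck1, at an unadjusted p under 0.05), against 11.3% of all genes. The muscle median was 0.08. Leaving out the 6 h arrays 1, 2 and 3 in turn gave 0.80, -0.72 and 0.17, and leaving out the 3 h arrays gave 0.43, 0.47 and -0.68. The fat median was -0.20. For it, leaving out the 6 h arrays gave 0.04, -0.21 and -0.35, and leaving out the 3 h arrays 0.12, 0.12 and -0.89. At 9 h against 6 h, 2 of 36 members were called, against 25.1% of all genes. Both were higher, Lipe by 0.50 (SE 0.08, limma adjusted p = 0.001) and Pck1 by 1.06 (SE 0.20, limma adjusted p = 0.00283). None of the 29 muscle members had a higher mean at 9 h than at 6 h, with a median of -0.34, and 0 were called (0 at an unadjusted p under 0.05). Leaving out the 6 h arrays 1, 2 and 3 in turn gave a median of -1.06, 0.51 and -0.45, and leaving out the 9 h arrays gave -0.66, -0.47 and 0.15. The calls of Lipe and Pck1 ended under normexp background correction (adjusted p = 0.864 and 0.895).

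A test for any difference over the 4 times called 3 of 36 members, against 44.2% of all genes: Lipe (limma adjusted p = 0.00123), Pck1 (0.00359) and Pparg (0.041). It called 0 of 29 muscle members, with 0 at an unadjusted p under 0.05. Of the other probes, that of Lipe correlated with the probe used at r = 0.61 and that of Pck1 at 0.71, and averaging the 2 probes ended the call of Pck1 at 9 h against 6 h (1.09, adjusted p = 0.0833), as did quantile scaling (0.67, adjusted p = 0.0543).

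Other genes of muscle and fat, listed by function, were read in the same way. Of 51 other muscle genes tested, 24 followed the muscle level at r of at least 0.9, with a median of 0.88 against -0.05 over all genes. Of these 51, 4 were called higher at 3 h, 3 higher at 6 h and 6 higher and 1 lower at 9 h against 0.5 h. Among them Fbxo32 (called at 3 h) and Chrna1 (at 6 h) were well above background on 9 arrays and Jph2 (at 9 h) on 11. These calls therefore rest in part on values not well above background. Over all genes 10.7, 4.01 and 22.4% were called higher at these times. Ucp3, a mitochondrial carrier of muscle, was not well above background at 0.5 h and passed the filter only through the later times. It was at least 2.78-, 2.66- and 2.98-fold higher at 3, 6 and 9 h (limma adjusted p = 0.0284, 0.0449 and 0.0186). It followed the muscle level at 0.83 and the fat level at 0.85. Its arrays at 3 h were at -2.54, -2.60 and -4.95, with the lowest on the replicate that was lowest for muscle and fat.

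The called genes of that list at 9 h also included Sln, an inhibitor of the calcium pump, which rose by 0.79 (SE 0.13, limma adjusted p = 0.00214), and Cav3, the caveolin of muscle, which rose by 0.79 (SE 0.16, limma adjusted p = 0.00536). Sln was at -4.22, -4.19 and -4.23 at 0.5 h and -3.53, -3.43 and -3.32 at 9 h, and Cav3 was highest on 9 h replicate 3, where the muscle level was -0.94. Myog, Myod1 and Myf6, factors that drive muscle formation, were lowest at -6.99, -6.00 and -7.22 and highest at -2.71, -1.19 and -2.18, each on 6 h replicate 2, and were well above background on 9, 10 and 8 arrays. Of 23 other fat genes 1, 1 and 4 were called higher at 3, 6 and 9 h against 0.5 h, beside the 10.7, 4.01 and 22.4% of all genes, among them Pnpla2, the first triglyceride lipase (0.58, SE 0.13, limma adjusted p = 0.0128 at 3 h). Of those called at 9 h, Adrb3 and Plin were well above background on only 8 and 9 arrays. Their calls therefore rest in part on values not well above background. The median r of this list with the fat level was 0.41, and 2 of 23 reached 0.9.

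Heart muscle shares genes with slow fibres, and its list was read for that reason. Myh6 followed the slow level at r = 0.99 over the 12 arrays, from -0.93 to 2.38, and its probe holds the 27 bases shared with Myh7 that are printed above. Actc1, heart actin, followed the muscle level at 0.78, and its probes shared no run over 6 bases with the Acta1 probe. Nppa, the atrial hormone, and Tnnt2, heart troponin T, correlated with the slow level at -0.01 and 0.39 and spanned -1.45 to -1.01 and -1.98 to -1.36. Of the 7 heart genes 2, 1 and 2 were called higher at 3, 6 and 9 h against 0.5 h, beside 10.7, 4.01 and 22.4% of all genes.

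Over all 29622 genes, 125 had an r of at least 0.9 with the mean centred level of the muscle members, 24 members and 101 others, and 0 had an r of -0.9 or below. Of the 125, 0 were called by limma in any comparison with 0.5 h or in the test over the 4 times, and 2, 5 and 3 had an unadjusted p under 0.05 at 3, 6 and 9 h and 0 over the 4 times. Over all genes 23.2, 13.4 and 33.3% were called at 3, 6 and 9 h, and 44.2% over the 4 times. The 125 were picked for following a level that varied widely between arrays of 1 time (pooled SD 1.03). Their lack of calls follows from that choice and is no separate result. Of the 10 non-members with the highest r, those with a gene name were Hrc, a calcium-binding protein of the reticulum, Stac3, of the release channel complex, Cox8b, a cytochrome oxidase subunit, Asb12, Rpl3l, a ribosomal protein, the giant spring protein Ttn and Kbtbd10 (current symbol Klhl41), all at 0.99. For the fat level there were 15 genes at 0.9 or above, 4 members and 11 others. Of these 15, 2 were called at 9 h against 0.5 h, beside 33.3% of all genes. Of the 10 non-members nearest to it, those with a gene name were Retn, the fat hormone resistin (0.97), Ces3 (current symbol Ces1d, 0.95), Thrsp, a factor of fat synthesis (0.95), Myh3, the embryonic myosin of muscle (0.9), and Gys2, a glycogen synthase (0.9). For the slow level, read after the members' values were seen, there were 9, the 4 members with Myh6, Myl2, Myl3, Myoz2 and LOC688228 (current symbol Myl4).

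A few genes that an earlier analysis of these data named for large changes were set against these levels. Pdk4, which shuts off pyruvate dehydrogenase, followed the muscle and fat levels at r = 0.62 and 0.64 and Cyp2e1, a cytochrome P450, at 0.59 and 0.81. Neither of these 2 stood well above background on any 0.5 h array, and both passed the filter only through later times. Their r therefore rest in part on background values, and the size of their difference from 0.5 h is uncertain. Fkbp5 and Zbtb16, targets of the stress steroid receptor, followed them at 0.23 and 0.25 and at 0.20 and 0.19. Epyc, a matrix proteoglycan, followed them at 0.49 and 0.58. On 3 h replicate 3, where the mean centred muscle and fat levels were lowest, Fkbp5 was at 2.93 beside 3.05 and 3.16 on the other 3 h arrays. Zbtb16 was at -1.58 there beside -1.57 and -1.95, and Epyc at -2.88 beside -1.48 and -0.58. Pdk4 was at -5.18 beside -4.25 and -4.78, and Cyp2e1 at -5.93 beside -5.49 and -3.66. The cause of these values was not tested.

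Markers of other tissues also differed between arrays. Those of neutrophils had a mean centred level of 2.12 on 6 h replicate 3 and between -0.76 and 0.64 elsewhere, and those of red blood cells 1.05 there and between -0.64 and 0.41 elsewhere. That array was not the one with most muscle or fat. Markers of cartilage and bone spanned 1.34, of smooth muscle 0.88, of connective tissue 0.78 and of endothelium 0.48, and their part in the muscle and fat levels was not tested.

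Promoters of the members were read because the members moved together. RefSeq promoters (build GRCr8) were matched for 25 of 29 muscle members and 6 of 8 fat members, and the 250 bases before each start were searched on both strands. The letters CAGCTG, a form of the E-box CANNTG bound by myogenic factors, were present in 9 of 25 muscle promoters (36.0%), 3 of 6 fat promoters and 12% of 27457 promoters in the table. The general form CANNTG, which contains it, was in 20 of 25, 4 of 6 and 65.4%. The MEF2 site was in 5 of 25 muscle promoters, 0 of 6 fat promoters and 3.04% of all, and the CArG box of serum response factor in 3 of 25, 0 of 6 and 1.49%. These are matches of letters, not evidence of binding. Acta1 (chr19:68784195-68784444, minus strand), Myl1 (chr9:75897800-75898049, minus strand) and Adipoq (chr11:91240170-91240419, minus strand) are printed with CAGCTG, MEF2 and CArG matches in capitals. Acta1 holds an E-box of this form and a CArG box, Myl1 holds a MEF2 site, and Adipoq holds an E-box of this form but no MEF2 site.
Acta1: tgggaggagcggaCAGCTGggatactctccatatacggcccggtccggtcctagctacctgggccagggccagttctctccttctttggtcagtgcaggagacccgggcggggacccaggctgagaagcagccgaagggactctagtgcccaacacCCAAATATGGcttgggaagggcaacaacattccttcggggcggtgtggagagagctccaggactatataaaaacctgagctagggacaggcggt
Myl1: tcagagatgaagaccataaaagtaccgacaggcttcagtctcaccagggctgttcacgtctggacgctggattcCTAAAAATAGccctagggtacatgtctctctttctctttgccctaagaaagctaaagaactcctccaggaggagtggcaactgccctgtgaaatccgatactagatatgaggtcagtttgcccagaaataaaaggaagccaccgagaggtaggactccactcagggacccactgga
Adipoq: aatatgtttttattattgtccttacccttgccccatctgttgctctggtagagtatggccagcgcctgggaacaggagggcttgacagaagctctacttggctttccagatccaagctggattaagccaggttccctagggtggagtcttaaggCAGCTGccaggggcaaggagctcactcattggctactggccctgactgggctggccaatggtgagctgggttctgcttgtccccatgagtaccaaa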

How the data were processed

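Total RNA from ganglia was labelled with Cy3 after low-input amplification and hybridised to 1-colour Agilent arrays, per the labels' protocols. Per the file headers, Feature Extraction 10.5.1.1 made the intensity values used here, deposited per spot on a linear scale after its background subtraction; the authors' deposited file for the whole series holds the same values (largest difference 0). The sources used here do not give any scaling between arrays.

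Control spots (1639 of 45018) and outlier spots (76 to 218 per array) were left out, and no spot was saturated. Signals were taken as log2, each array's 75th percentile was subtracted, and repeated spots were averaged. A probe was kept if every array of some time was well above background, which held for 34836 of 41012. The brightest kept probe stood for each gene, 29622 in all; 7 members had several kept probes. Coordinates are those of the files (rn4), and the accessions of 32 members matched current names (GRCr8).

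The 4 time means were estimated in R 4.3.3 by limma 3.58.1 (lmFit, eBayes; the data.table package, version 1.17.8) over 12 arrays, with 8 residual degrees of freedom. An adjusted p (Benjamini-Hochberg over all genes within a comparison) under 0.05 was called. The fit was tested on simulated data. For a bound, the dim time's arrays were raised to the lowest signal that was well above background on that array, where the probe lay under it. The number of arrays limits the precision.

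The members and lists were chosen with earlier results of these data known. Per-array values are given for 8 set members and up to 4 further called ones, differences for these and for each called member, and r for the named genes among the 10 non-members nearest to the muscle and to the fat level. Lists read beside the members were other muscle and fat genes, heart and smooth muscle, sensory neurons, muscle-sensing neurons, Schwann cells, satellite glia, connective tissue, cartilage and bone, endothelium, red blood cells and neutrophils.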

Additional observations from a re-analysis of the deposited data

How the results depend on the processing

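Of the counts of called members, 111 of 137 recomputed values stayed within 1.5 times, and 788 of 848 gene values kept direction and call. Of 230 medians, 228 stayed within the pooled SD between arrays of 1 time, 1.03 for muscle and 0.65 for fat. That limit is wide beside the medians and allows a change of sign. The muscle median at 9 h against 6 h counted as within it when it went from -0.34 to 0.51 without 6 h replicate 2. Normexp background correction called 0 members over the 4 times, at 3 h and 9 h (each against 0.5 h) and between 6 h and 9 h, and 684, 652, 436 and 166 genes in place of 13085, 6874, 9861 and 7428 (for 6 h with 0.5 h, 1 in place of 3980; for 6 h with 3 h, 320 in place of 3342). At 3 h against 0.5 h there were 2 members called under median scaling and 2 with no filter, beside 7602 and 11634 genes. At 6 h against 0.5 h there was 1 each under median scaling, with no filter and with only these times fitted. The genes called in all were 4036, 9025 and 2505. At 9 h against 0.5 h there were 2 under cyclic loess and 2 among probes well above background everywhere, beside 10935 and 6786 genes. At 9 h against 6 h there was 1 each under quantile scaling, among those probes and with probes averaged. There 6882, 4507 and 7786 genes were called in all.

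Same-numbered arrays did not deviate together more than others (r -0.13 to 0.22, median 0.02, against -0.23 to 0.20, median -0.02, for other numbers). No shared deviation by number was seen, which cannot decide whether the numbers pair samples. With the replicate block 0 members were called at 3 h against 0.5 h (Lipe adjusted p = 0.0582), and 5787 genes. With slide as a random block (consensus correlation -0.26) 5, 3 and 6 members were called at 3, 6 and 9 h against 0.5 h and 2 for 6 h with 3 h, with 14171, 9136, 16892 and 8519 genes, and Ckm at 6 h against 3 h was 0.05. No slide held arrays of more than 1 time, so this block cannot remove slide differences from any comparison between times. Against the main scaling, the median of all genes at 9 h against 6 h shifted by -0.12 under quantile and -0.21 under median scaling, and by 0.30 under normexp at 6 h against 3 h. Pvalb at 9 h against 0.5 h was -0.07 under normexp and -0.09 under median scaling. Acta1 at 6 h against 3 h, 0 over all arrays, was -0.13 under normexp, and Fabp4 at 9 h against 6 h was 0 under median scaling.

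Leaving out each array in turn gave 0 to 5 called members at 3 h against 0.5 h, 0 to 1 at 6 h against 0.5 h and 2 to 5 over the 4 times. The genes called in all were 4528 to 6863, 2198 to 4098 and 10597 to 12704. The fat median was 0.51 to 1.71 at 3 h against 0.5 h and -0.89 to 0.12 at 6 h against 3 h. Signs turned, for genes that were not called, at 6 h against 3 h for Acta1 (-0.92 to 0.75), Ckm (-0.88 to 0.62), Mylpf (-0.75 to 0.80), Adipoq (-1.34 to 1.00), Fabp4 (-1.16 to 0.50) and Pvalb (-0.42 to 0.01). They turned at 9 h against 6 h for Acta1 (-1.05 to 0.63), Ckm (-0.90 to 0.60), Mylpf (-0.89 to 0.62), Adipoq (-0.18 to 1.30), Fabp4 (-0.40 to 0.94) and Pvalb (-0.24 to 0.19), and for Pvalb at 6 h (-0.16 to 0.26) and 9 h (-0.11 to 0.13) against 0.5 h. The cause of these changes was not tested. Signal over background limits Cidec, Pck1 and Lep.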
